A study of Mus musculus with 71 samples.

Results

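The matrix metalloproteases (Mmp), the ADAM and ADAMTS metalloproteases and the tissue inhibitors of metalloproteases (Timp) were examined in cultured mouse adipocytes treated with rosiglitazone (RSG), an agonist of the nuclear receptor PPARγ. The genes were those whose symbol is Mmp, Timp, Adam or Adamts followed by a number, and only probe sets annotated to 1 gene were used. The rule gave 54 genes with 83 probe sets of the 12393 genes and 22626 probe sets on the array, made up of 18 Mmp genes, 25 Adam genes, 7 Adamts genes and 4 Timp genes. Of these, 35 genes had 1 probe set and 19 had more.

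Adipocytes were differentiated from 3T3-L1 cells, an embryo-derived mouse preadipocyte line, and from C3H/10T1/2 cells, a multipotent mouse line also derived from embryos. RSG was already part of both differentiation recipes, at 100 nM for 3T3-L1 and at 10 µM for C3H/10T1/2 cells, and was washed out for 24 hrs in a medium with serum albumin before the treatment. RSG (1 µM) or DMSO, the solvent, was then given in the wash-out medium for 1, 2, 4, 7, 24 or 48 hrs, and RNA was hybridised to Affymetrix arrays. Each line had 12 groups of 3 arrays numbered 1 to 3, except that 3T3-L1 with DMSO for 2 hrs had 2 (numbers 2 and 3), which left 35 arrays of 3T3-L1 and 36 of C3H/10T1/2 adipocytes. Each sample pooled cells of several wells, and the lines were differentiated in different ways, so that line and protocol cannot be told apart. In whole cultures, fewer cells of a type and less RNA per cell cannot be told apart either. Cells harvested before treatment were not analysed here.

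These proteins remodel the matrix around fat cells and release proteins from their surface. Most Mmp proteins are secreted, are made as inactive precursors and cut collagens, gelatins and proteoglycans, while a few, such as Mmp14, are held in the cell membrane. ADAM proteins are membrane-bound and shed growth factors, cytokines and receptors from the cell surface. ADAMTS proteins are secreted and cut proteoglycans such as versican and aggrecan. The Timp proteins block the active site of these enzymes, each with its own range of targets. In growing fat tissue, collagen-cutting Mmps make room for enlarging adipocytes, and matrix turnover goes along with the conversion of preadipocytes to adipocytes.

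The promoter sequences of 6 members that the results below describe are shown, and no result was tested against these sequences. Adamts1 (chr16:85803114-85803363, minus strand), Mmp11 (chr10:75932503-75932752, minus strand), Mmp14 (chr14:54431348-54431597, plus strand) and Timp2 (chr11:118355412-118355661, minus strand) were the members lower with RSG in both lines at 24 hrs. Mmp13 (chr9:7272264-7272513, plus strand) and Mmp3 (chr9:7445572-7445821, plus strand), both on chromosome 9, are members whose signals differed widely between the replicate numbers of C3H/10T1/2 adipocytes. The sequences are the 250 bases before the start of each gene, 5′ to 3′ on its own strand, from RefSeq on GRCm38.p6, and capitals mark matches to the GC box GGGCGG or the AP-1 motif TGANTCA on either strand.
Adamts1: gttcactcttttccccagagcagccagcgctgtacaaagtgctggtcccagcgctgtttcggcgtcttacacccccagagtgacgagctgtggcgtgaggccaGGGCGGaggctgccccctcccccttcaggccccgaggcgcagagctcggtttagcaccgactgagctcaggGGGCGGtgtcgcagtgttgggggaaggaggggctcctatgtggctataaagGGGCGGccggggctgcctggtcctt
Mmp11: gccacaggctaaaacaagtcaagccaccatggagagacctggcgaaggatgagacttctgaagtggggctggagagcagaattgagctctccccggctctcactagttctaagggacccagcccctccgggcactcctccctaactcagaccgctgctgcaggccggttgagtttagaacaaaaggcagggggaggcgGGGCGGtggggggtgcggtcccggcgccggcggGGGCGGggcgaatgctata
Mmp14: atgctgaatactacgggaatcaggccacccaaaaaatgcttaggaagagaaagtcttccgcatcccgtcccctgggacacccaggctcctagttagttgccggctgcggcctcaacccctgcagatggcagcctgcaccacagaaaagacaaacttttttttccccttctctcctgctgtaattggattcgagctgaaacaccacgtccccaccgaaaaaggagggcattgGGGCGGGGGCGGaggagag
Timp2: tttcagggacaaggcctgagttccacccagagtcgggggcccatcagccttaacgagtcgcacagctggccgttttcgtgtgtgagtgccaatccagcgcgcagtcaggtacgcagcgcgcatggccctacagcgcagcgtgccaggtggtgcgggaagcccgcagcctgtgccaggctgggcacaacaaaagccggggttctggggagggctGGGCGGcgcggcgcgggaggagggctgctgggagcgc
Mmp13: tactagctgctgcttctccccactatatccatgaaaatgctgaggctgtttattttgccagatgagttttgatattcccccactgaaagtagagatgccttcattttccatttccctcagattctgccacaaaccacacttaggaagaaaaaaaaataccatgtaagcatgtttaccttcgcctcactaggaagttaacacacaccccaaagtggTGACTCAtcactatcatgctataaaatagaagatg
Mmp3: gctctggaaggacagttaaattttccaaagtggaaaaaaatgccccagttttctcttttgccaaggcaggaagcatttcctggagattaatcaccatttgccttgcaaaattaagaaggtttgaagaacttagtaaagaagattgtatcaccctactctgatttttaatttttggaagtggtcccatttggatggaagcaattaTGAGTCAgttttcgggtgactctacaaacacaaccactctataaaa

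RefSeq promoters were found for 30 of the 54 genes, with 35 starts in all, and were set against 32851 promoters of the same length. The GC box, bound by Sp1, was found in 11 of the 30 genes and in 32.7% of all promoters, and Adamts1 had 3 matches, Mmp11 and Mmp14 had 2 each and Timp2 had 1. The AP-1 motif, bound by Fos and Jun proteins, was found in 10 of the 30 genes, against 6.75% of all promoters. It lay in 8 of the 9 Mmp genes on chromosome 9, among them Mmp3 and Mmp13, and in 2 of the other 21 genes, whereas the GC box lay in 0 of those 9 genes and in 11 of the other 21. The hexamer AGGTCA, which nuclear receptors bind, was in 8 genes and in 14% of all promoters, and 2 copies of it spaced by 1 base (the DR1 element of PPARγ with its partner RXR) were in 0 of the 30 genes and in 0.0335% of all promoters. Counted by promoter, members had the GC box in 11 of 35, AP-1 in 10, the hexamer in 8 and its spaced copies in 0. A match describes letters in this window only.

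Signals were MAS5 intensities, which the authors had brought to a common target across arrays, and all levels below are such signals in arbitrary units. A probe set was tested in a line where at least 1 group mean reached 19.9, the presence level that the study's methods give, which is also the 95th percentile of the 27 probe sets for bacterial spike-in controls. In 3T3-L1 cultures 66 probe sets of 42 members were tested of 18028 in all, and in C3H/10T1/2 cultures 54 probe sets of 33 members of 16123. The 12 members tested in neither line were Adam3, Adam5, Adam11, Adam18, Adam24, Adam25, Adam26a, Adam34, Adamts8, Mmp1b, Mmp12 and Mmp20. Just inside the presence level were Adam21 (1450801_at) and Adam7 in 3T3-L1 cultures, with highest group means of 20.2 and 20.4, and Adam28 and Mmp23 (1417282_at) in C3H/10T1/2 cultures, with 22.9 and 25.1. Just outside were Adam5 (1424798_a_at) and Adam19 (1418403_at) in 3T3-L1 cultures, with 19 and 18.3, and Adam1b (1432657_at) and Adamts4 (1455965_at) in C3H/10T1/2 cultures, with 19.1 and 18. With DMSO, 26 of the 54 genes were at or above the presence level on every 3T3-L1 array and 24 on every C3H/10T1/2 array, and 8 and 17 were below it on every array. A change is called where the adjusted p of limma, over all probe sets tested in a comparison, was under 0.05.

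Of the adipocyte markers, 8 of the 9 measured were at the presence level in both lines and Lep, which encodes leptin, was below it. Arrays with the same number deviated from their group means together in C3H/10T1/2 cultures. Number 3 of C3H/10T1/2 was the lowest array in 12 of 12 groups for Mmp3 (stromelysin-1), with a mean log2 difference from the other 2 numbers of -2.29, and for Mmp13 (collagenase-3), at -1.77. It was the highest in 12 of 12 groups for Mmp11, at 0.71, and the lowest in 10 of 12 for Timp1, at -1.2. Of all 16123 probe sets tested, number 3 was the lowest array in all 12 groups for 0.428% and the highest in all 12 for 0.217%. For number 1 these shares were 0.496% and 0.44%, and for number 2 they were 0.248% and 0.0868%, so number 3 was not the only number to stand apart. In 3T3-L1 cultures number 1 was the lowest array in 11 of 11 groups of 3 for both probe sets of Mmp2, at -0.45 and -0.73. It was so for 0.533% of all probe sets tested in that line. C3H/10T1/2 results that change with the replicate number as a block are given with that value, and results are given without the number 3 arrays where that changes them.

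**Figure D1:**
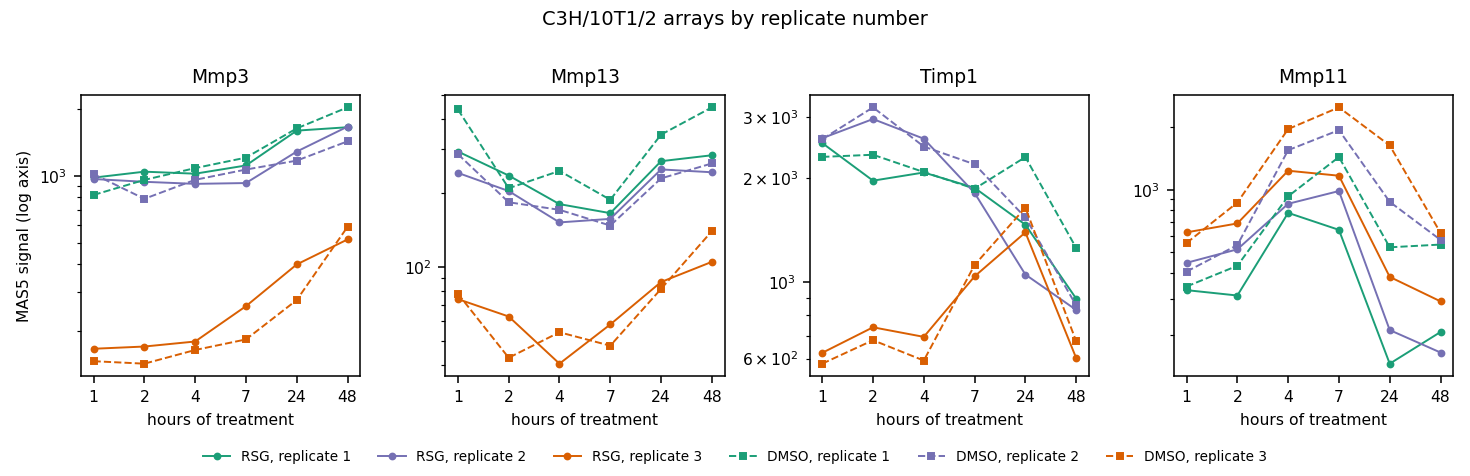
Signal (log axis, arbitrary units) of Mmp3, Mmp13, Timp1 and Mmp11 on each C3H/10T1/2 array, by replicate number, treatment and time. Number 3 lies below the other numbers in all 12 groups for Mmp3 and Mmp13 and above them in all 12 for Mmp11, while for Timp1 it lies below them in 10 of 12.

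At each time RSG was set against DMSO to learn which of these genes respond to the drug. RSG lowered more of the proteases and inhibitors than it raised, mainly at 24 and 48 hrs, and 17 genes were called at 1 time or more, 14 in 3T3-L1, 10 in C3H/10T1/2 and 7 in both. Of the 17, 15 were lower with RSG, and Adam12 and Mmp13 were higher. These counts pool the 6 times and all probe sets of a gene. The same count was not made over all genes, so they have no share of all to be read against. Shares of all probe sets at single times follow. At 24 hrs, 2 probe sets were higher and 11 lower in 3T3-L1 cultures, which is 3.03% and 16.7% of the 66 tested, against 4.79% higher and 6.97% lower among all probe sets. At 48 hrs 3 were higher and 12 lower (4.55% and 18.2%), against 6.2% and 8.09% of all. For the C3H/10T1/2 line, 2 probe sets were higher and 12 lower at 24 hrs (3.7% and 22.2% of 54), against 3.65% and 4.07% of all, and 1 was higher and 10 lower at 48 hrs (1.85% and 18.5%), against 2.79% and 2.62% of all.

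The median log2 difference of the members was -0.21 at 24 hrs and -0.29 at 48 hrs for 3T3-L1, where the medians of all probe sets were -0.01 and -0.03. It was -0.33 and -0.28 in C3H/10T1/2 cultures, where the medians of all were -0.07 and -0.01. The Timp probe sets were lower in 4 and 5 of 11 at 24 and 48 hrs in 3T3-L1 cultures and in 5 and 3 of 11 in C3H/10T1/2 cultures, and 0 were higher. Mmp probe sets were lower in 3 of 21 at 24 hrs and 3 of 21 at 48 hrs in 3T3-L1 cultures, with 1 higher at 48 hrs, and in 5 of 16 at both times in C3H/10T1/2 cultures. Adamts probe sets were lower in 3 and 1 of 8 in 3T3-L1 cultures and in 1 and 2 of 7 in C3H/10T1/2 cultures. Among Adam probe sets, those higher were the 2 of Adam12, and 1 and 3 of 26 were lower in 3T3-L1 cultures and 1 and 0 of 20 in C3H/10T1/2 cultures.

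Few members moved in the first hours. At 1 hr 0 members were called in either line by limma, against 0.0666% of all probe sets in 3T3-L1 cultures and 0.0434% in C3H/10T1/2 cultures, and 5 and 2 member probe sets had an unadjusted p under 0.05. At 2 hrs 0 were called, against 0.172% and 0.229% of all, and 1 in each line had an unadjusted p under 0.05. The methods' test (analysis of variance on log10 signals, an unadjusted p under 0.05 and a fold of 1.2) passed the same numbers of probe sets, 5 and 2 at 1 hr and 1 and 1 at 2 hrs. At 4 hrs Adamts1 was the member called in each line, against 0.716% of all probe sets in 3T3-L1 cultures and 0.763% in C3H/10T1/2 cultures. At 7 hrs 1 was higher and 3 were lower of 66 in 3T3-L1 cultures, against 1.22% and 0.821% of all, and 2 were higher and 2 lower of 54 in C3H/10T1/2 cultures, against 1.65% and 1.2% of all.

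With the replicate number as a block, C3H/10T1/2 cultures had 1 member called at 1 hr, 1 at 2 hrs, 2 at 4 hrs, 6 at 7 hrs, 20 at 24 hrs and 18 at 48 hrs, of 54. The shares of all probe sets called with the block at these times were 0.0992%, 0.546%, 1.49%, 6.01%, 12.6% and 9.43%. At 24 hrs 2 were higher and 18 lower with the block, against 5.36% and 7.27% of all, and at 48 hrs 2 and 16, against 4.56% and 4.87%. The count of 13 calls at 24 hrs in 3T3-L1 cultures was 8 without DMSO replicate 3 or without RSG replicate 1. In the other line, C3H/10T1/2, the count of 14 at 24 hrs was 9 without DMSO replicate 2 or without the number 3 arrays, and the count of 4 at 7 hrs was 2 without DMSO replicate 3 and 1 without the number 3 arrays, which also took the count at 4 hrs to 0.

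**Figure D2:**
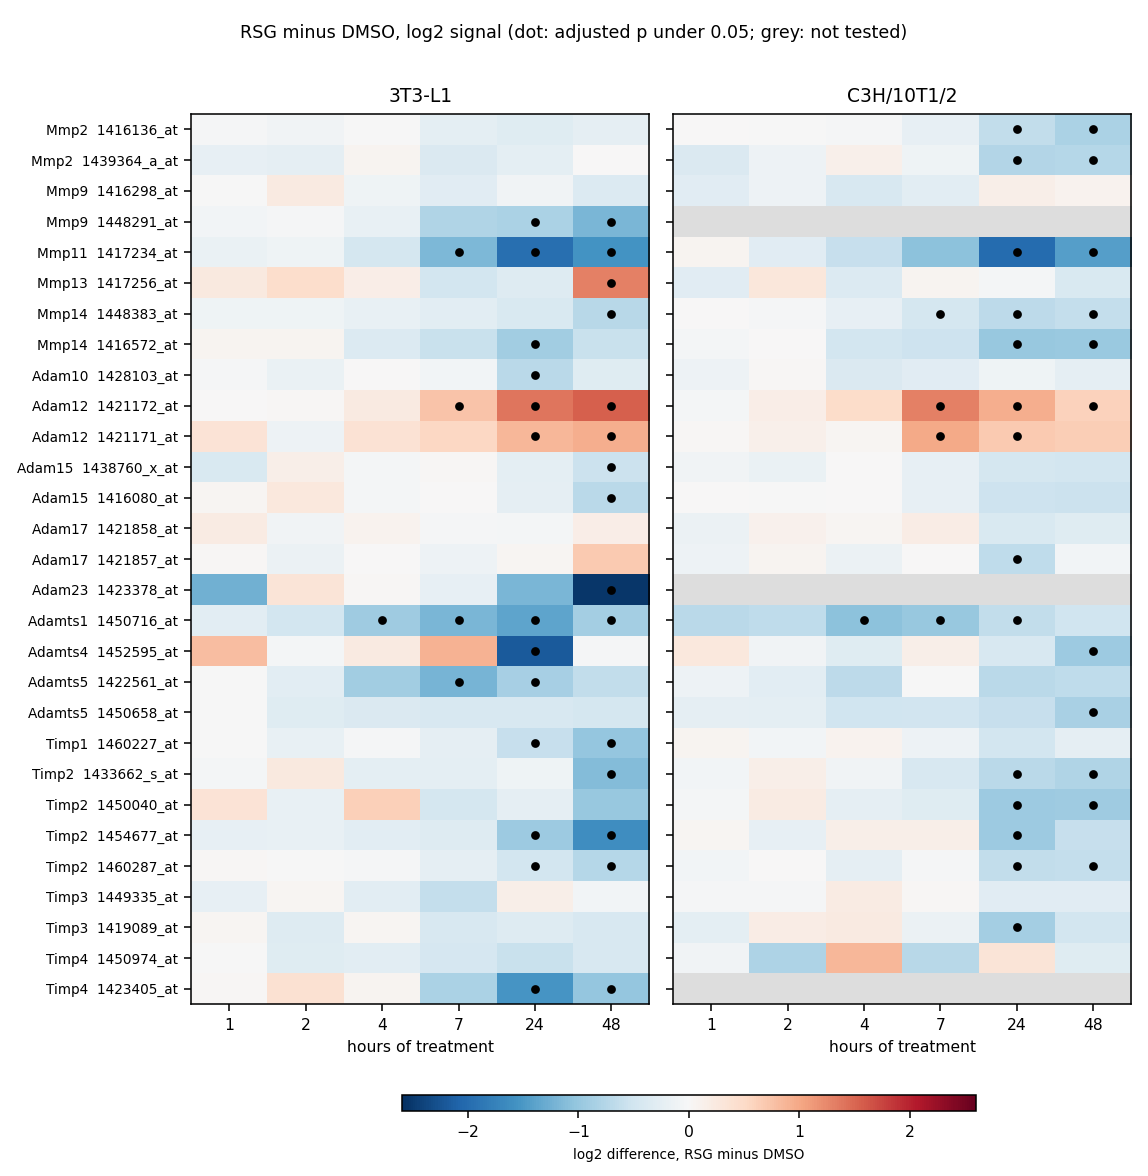
Log2 difference, RSG minus DMSO, of the 29 probe sets of the called genes (rows) at 6 times in 3T3-L1 cultures and C3H/10T1/2 cultures (columns), with red for higher and blue for lower with RSG, a dot where the adjusted p was under 0.05 and grey where a probe set was not tested. Adam12 is red from 7 hrs on in both lines, and Adamts1, Mmp11, Mmp14 and Timp2 are blue at 24 hrs in both.

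Markers of fibroblasts and preadipocytes were lower with RSG too. Of their 14 genes, 3T3-L1 cultures had 6 that were lower with RSG at 24 hrs and 10 at 48 hrs (7 and 13 of 24 probe sets), 6 were lower at each time in C3H/10T1/2 cultures (8 and 7 of 22), and 0 were higher. Their summed signal in 3T3-L1 cultures was 18644 to 22168 with RSG, against 24516 to 28885 with DMSO, at 24 hrs, and 19384 to 20964 with RSG, against 29337 to 30582 with DMSO, at 48 hrs. In C3H/10T1/2 cultures it was 14747 to 17279 with RSG, against 20778 to 24989 with DMSO, at 24 hrs, and 14093 to 16108 with RSG, against 20422 to 20634 with DMSO, at 48 hrs. Their part in the results was not tested. Of the macrophage probe sets 0 of 8 were called by limma at 24 or 48 hrs in either line, with 1 higher and 1 lower at an unadjusted p under 0.05 at each time in 3T3-L1 cultures and 0 in C3H/10T1/2 cultures. Their summed signal at 48 hrs in 3T3-L1 cultures was 347 to 513 with RSG, against 376 to 540 with DMSO, and Itgam and Ptprc were below the presence level in every group. The endothelial and skeletal muscle lists also had 0 calls at these times, with 1 and 2 probe sets at an unadjusted p under 0.05 at 48 hrs in 3T3-L1 cultures and 0 otherwise.

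Of the adipocyte markers 5 probe sets were higher and 1 lower of 15 at 24 hrs in 3T3-L1 cultures and 3 and 1 at 48 hrs, while C3H/10T1/2 had 2 and 0 (24 hrs) and 2 and 1 (48 hrs). In 3T3-L1 cultures those higher were of Fabp4 (at 24 hrs), Cd36 and Cidec, genes of fatty acid binding, fatty acid uptake and lipid droplets. In C3H/10T1/2 cultures those higher were of Cd36 alone. The one that was lower was of Pparg, at -1.03 at 24 hrs in 3T3-L1 cultures. The summed signal of the list at 24 hrs was 42005 to 52524 with RSG, against 34843 to 42022 with DMSO, in 3T3-L1 cultures, and 31811 to 39494 with RSG, against 31996 to 35913 with DMSO, in C3H/10T1/2 cultures. Of the markers of proliferating cells Cdk1, a kinase of cell division, was lower, with log2 differences for 3T3-L1 of -0.52 (24 hrs) and -0.70 (48 hrs), where it was 1 of 4 probe sets, and for C3H/10T1/2 of -1.52 (48 hrs), where it was 1 of 2. The part of these cells in the results was not tested.

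Mmp11 (stromelysin-3), a secreted protease of stromal fibroblasts whose loss in mice leads to more fat tissue, fell in both lines. In 3T3-L1 cultures its signal at 24 hrs was 123, 104 and 141 with RSG, against 370.0, 485 and 595 with DMSO. At 48 hrs it was 179, 145 and 169 with RSG, against 543, 414 and 482 with DMSO. Every RSG array lay below every DMSO array, and the log2 differences were -1.97 ± 0.21 (SE, adjusted p = 1.18e-07) at 24 hrs and -1.55 ± 0.21 (SE, adjusted p = 3.15e-06) at 48 hrs. The fall was present at 7 hrs, at -1.17 ± 0.21 (SE, adjusted p = 0.00109).

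For the C3H/10T1/2 line, Mmp11 had a signal of 146, 212 and 382 with RSG, against 529, 875 and 1630.0 with DMSO at 24 hrs. At 48 hrs it was 208, 166 and 291 with RSG, against 546, 575 and 621 with DMSO. The arrays of the 2 treatments were separate at both times although number 3 was high in both. The log2 differences were -2.00 ± 0.37 (SE, adjusted p = 0.000578) and -1.43 ± 0.37 (SE, adjusted p = 0.0156), and the call at 48 hrs was lost without DMSO replicate 3, RSG replicate 1 or RSG replicate 2 (adjusted p 0.015 to 0.095 with 1 array left out). At 7 hrs the difference of -1.07 ± 0.37 (SE, adjusted p = 0.12) was called only with the block (adjusted p = 0.000137).

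Mmp14, a collagenase of the cell membrane that also activates Mmp2, was called lower at 24 and 48 hrs in 3T3-L1 cultures and from 7 hrs on in the other line. In 3T3-L1 cultures its probe set 1448383_at had signals at 48 hrs of 584, 506 and 508 with RSG, against 728, 873 and 1063 with DMSO, and all RSG arrays were below all DMSO arrays. The log2 difference was -0.72 ± 0.14 (SE, adjusted p = 0.000286) at 48 hrs and -0.39 ± 0.14 (SE, adjusted p = 0.063) at 24 hrs, when the other probe set, 1416572_at, was called at -0.91 ± 0.23 (SE, adjusted p = 0.00643). In the other line, C3H/10T1/2, the signals were 501, 593 and 553 with RSG, against 825, 856 and 959.5 with DMSO at 24 hrs. They were 434, 448 and 577 with RSG, against 619, 776 and 839 with DMSO at 48 hrs. The treatments were separate at both times, with differences of -0.68 ± 0.12 (SE, adjusted p = 0.000209) and -0.62 ± 0.12 (SE, adjusted p = 0.000787), and the second probe set gave -0.99 and -0.96. The call at 7 hrs, -0.45 ± 0.12 (SE, adjusted p = 0.0254), was lost without DMSO replicate 3, RSG replicate 2 or RSG replicate 3 (adjusted p 0.0342 to 0.186).

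Mmp2, the gelatinase that Mmp14 activates, was called lower in C3H/10T1/2 cultures, at both late times and by both of its probe sets. Its signals (1416136_at) were 535, 476 and 496 with RSG, against 844, 824 and 675 with DMSO at 24 hrs. They were 421, 403 and 387 with RSG, against 675, 812 and 669 with DMSO at 48 hrs, with no overlap at either time. The differences were -0.63 ± 0.11 (SE, adjusted p = 0.000508) and -0.83 ± 0.11 (SE, adjusted p = 1.31e-05), and 1439364_a_at gave -0.76 and -0.75. In 3T3-L1 cultures the 48-hr signals were 837, 1082 and 1184 with RSG, against 912, 1206 and 1569 with DMSO, which overlapped, and the difference was -0.23 ± 0.22 (SE, adjusted p = 0.591). Each of these RSG arrays was below the DMSO array of the same number, and number 1 was the lowest array with either treatment. The difference of the RSG effect between the lines at 48 hrs was 0.60 ± 0.25 (SE, adjusted p = 0.403), and it was called only with the block (adjusted p = 0.0114).

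Mmp9, the other gelatinase, was called by 1 of its 2 probe sets in 3T3-L1 cultures. The signals of 1448291_at were 13.0, 24.9 and 16.3 with RSG, against 31.1, 35.6 and 56.7 with DMSO at 48 hrs, all lower with RSG and partly under the presence level, with a difference of -1.19 ± 0.27 (SE, adjusted p = 0.002). At 24 hrs the difference was -0.82 ± 0.27 (SE, adjusted p = 0.0422), and the call was lost without any 1 of the 6 arrays (adjusted p 0.0593 to 0.156). The probe set with the higher mean signal, 1416298_at, gave -0.35 ± 0.17 (SE, adjusted p = 0.184) at 48 hrs. In C3H/10T1/2 cultures 1448291_at was under the presence level in every group.

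Mmp13, which cuts fibrillar collagen, was the Mmp called higher, at 48 hrs in 3T3-L1 cultures, and it was close to the presence level. Its signals were 22.1, 19.1 and 15.9 with RSG, against 14.9, 5.6 and 5.3 with DMSO. The DMSO arrays were all under 19.9, so no fold is given, and the adjusted p of 0.0498 rose above the threshold without 5 of the 6 arrays (adjusted p 0.0113 to 0.187). Mmp3, which activates other Mmps, was not called, with differences at 24 hrs of -0.24 ± 0.25 (SE, adjusted p = 0.627) in 3T3-L1 cultures and 0.21 ± 0.97 (SE, adjusted p = 0.939) in C3H/10T1/2 cultures.

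**Figure D3:**
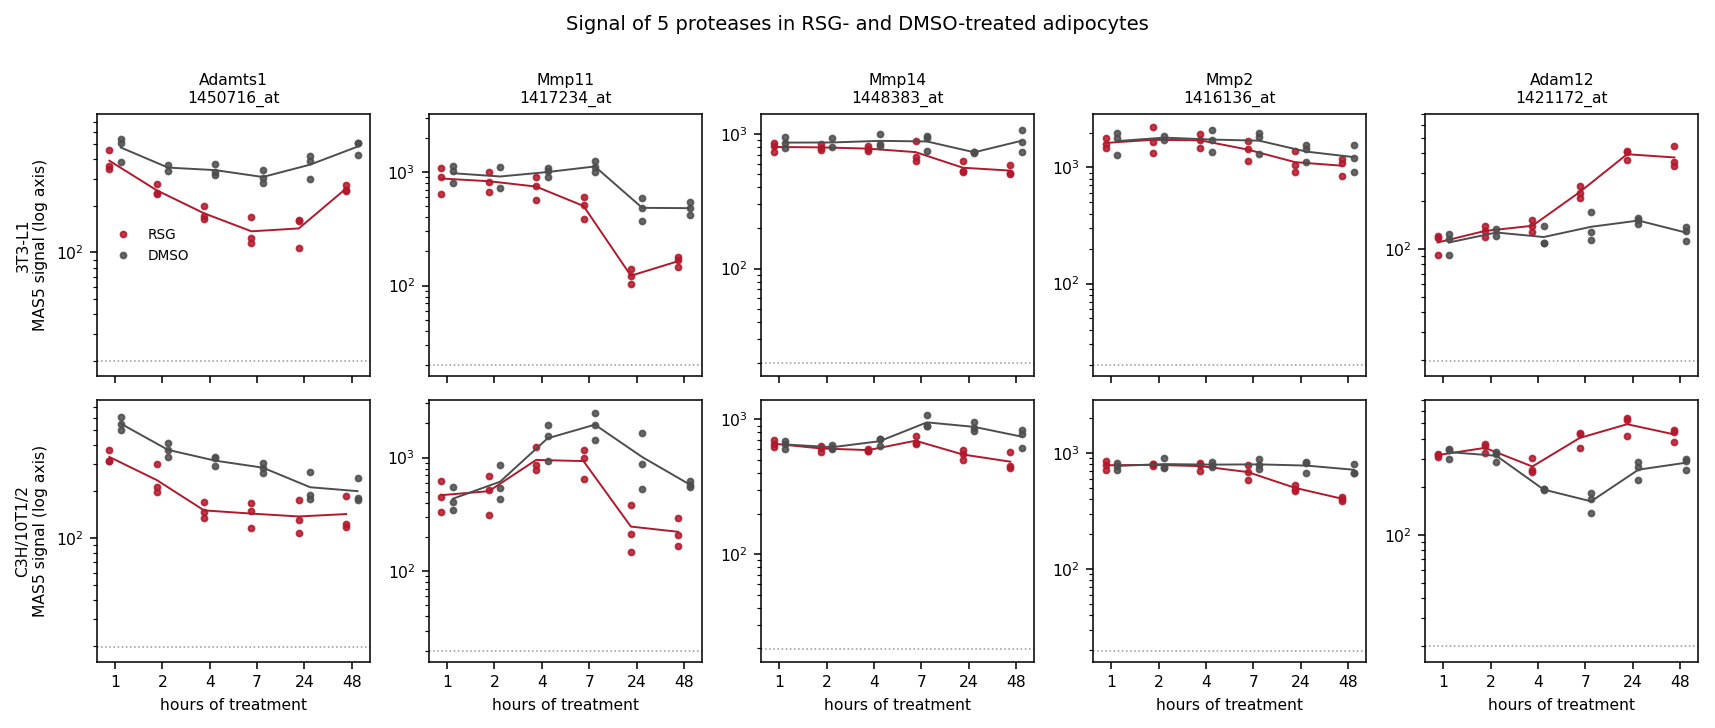
Signal (log axis, arbitrary units) of Adamts1, Mmp11, Mmp14, Mmp2 and Adam12 on each array in 3T3-L1 cultures and C3H/10T1/2 cultures at 1 to 48 hrs (evenly spaced), with RSG in red and DMSO in grey and lines through the group means. The RSG arrays lie below the DMSO arrays for Mmp11 at 24 and 48 hrs in both lines and above them for Adam12 at the same times.

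Adam12 (meltrin α) is a membrane protease known from fusing muscle cells and from the growth of fat tissue in mice. It was the member called higher with RSG in both lines. In 3T3-L1 cultures its signal (1421172_at) was 209.9, 248 and 226 with RSG, against 128, 171 and 114 with DMSO at 7 hrs. At 24 hrs it was 413, 407 and 363 with RSG, against 144, 156 and 152 with DMSO. At 48 hrs it was 332, 441 and 354 with RSG, against 138, 130.1 and 112 with DMSO. All RSG arrays were above all DMSO arrays at each of these times, and the log2 difference was 0.74 at 7 hrs, 1.39 ± 0.16 (SE, adjusted p = 2.76e-07) at 24 hrs and 1.56 ± 0.16 (SE, adjusted p = 1.26e-08) at 48 hrs. The call at 7 hrs (adjusted p = 0.00642) was lost without DMSO replicate 3 (adjusted p 0.00222 to 0.0751).

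For the C3H/10T1/2 line, Adam12 had signals at 7 hrs of 437, 349 and 429.5 with RSG, against 183, 167 and 137 with DMSO. At 24 hrs they were 541, 414 and 526 with RSG, against 285, 265 and 219 with DMSO. At 48 hrs they were 453, 443 and 381 with RSG, against 301, 292 and 256 with DMSO. The arrays were separate at all 3 times, while the difference was 1.32 ± 0.13 (SE, adjusted p = 4.19e-08) at 7 hrs, 0.94 ± 0.13 (SE, adjusted p = 1.1e-05) at 24 hrs and 0.59 ± 0.13 (SE, adjusted p = 0.0037) at 48 hrs, in each of which RSG was higher. From 1 to 7 hrs the mean signal fell from 330 to 162 with DMSO and went from 316 to 405 with RSG. The 7-hr difference is thus not a rise with RSG alone. At 4 hrs the difference was 0.47 ± 0.13 (SE, adjusted p = 0.0873), and it was called with the replicate block (adjusted p = 0.0418). The second probe set, 1421171_at, was called at 24 and 48 hrs in 3T3-L1 cultures (0.87 and 0.95) and at 7 and 24 hrs in C3H/10T1/2 cultures (0.99 and 0.68), the last of which was lost without any 1 of 5 arrays (adjusted p 0.0274 to 0.222).

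Adam10 and Adam17 are sheddases, each lower by 1 of 3 probe sets at 24 hrs, and the difference of the RSG effect between the lines at that time was called for neither, with or without the block. Adam10, which cuts Notch receptors and many other surface proteins, had signals (1428103_at) of 123, 152 and 162 with RSG, against 203, 261 and 244 with DMSO in 3T3-L1 cultures at 24 hrs, all lower with RSG. The difference was -0.70 ± 0.19 (SE, adjusted p = 0.0154), and the call was lost without DMSO replicate 2, DMSO replicate 3 or RSG replicate 1 (adjusted p 0.013 to 0.108), while its other probe sets, 1450104_at and 1450105_at, were at -0.01 and -0.39 and were not called. Adam17, which releases TNF and EGF receptor ligands, was called by 1 of 3 probe sets (1421857_at) in C3H/10T1/2 cultures at 24 hrs, with 121, 87.8 and 79.1 with RSG, against 160.0, 155 and 138 with DMSO. That difference, -0.67 ± 0.21 (SE, adjusted p = 0.0412), was lost without any 1 of 5 arrays (adjusted p 0.0229 to 0.179), and the probe set with the highest mean signal, 1421858_at, gave -0.40 ± 0.17 (SE, adjusted p = 0.174) (adjusted p = 0.0418 with the replicate block).

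Adam15, which carries an integrin-binding motif, was lower at 48 hrs in 3T3-L1 cultures by 2 of its probe sets. Its signals (1438760_x_at, a probe set that can bind related transcripts) were 393, 352 and 437 with RSG, against 581, 510.0 and 638 with DMSO, with no overlap. The difference was -0.55 ± 0.15 (SE, adjusted p = 0.0108) for this probe set, lost without DMSO replicate 3 or RSG replicate 2 (adjusted p 0.00897 to 0.0664), and -0.70 ± 0.17 (SE, adjusted p = 0.00473) for 1416080_at. For C3H/10T1/2 both probe sets were called only with the replicate block, 1438760_x_at at -0.46 at 24 hrs (adjusted p = 0.0377 with the block) and 1416080_at at -0.54 (adjusted p = 0.0309 with the block). Adam23, an ADAM without protease activity that is known from nerve cells, had the largest fall among the ADAM probe sets called in 3T3-L1 cultures. At 48 hrs its signals were 12.5, 14.6 and 40.9 with RSG, against 93.9, 93.8 and 164 with DMSO, which did not overlap, and 2 of the RSG arrays were under the presence level. The difference was -2.53 ± 0.61 (SE, adjusted p = 0.00386), and it was called without any 1 array (adjusted p 0.00165 to 0.0312). In the other line, C3H/10T1/2, Adam23 was not tested.

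Adamts1, a secreted protease that cuts versican and aggrecan, was called lower at 4, 7 and 24 hrs in both lines and was the member called at 4 hrs. In 3T3-L1 cultures its signals were 199, 171 and 166 with RSG, against 332, 315 and 374 with DMSO at 4 hrs. At 7 hrs they were 125, 115 and 170.4 with RSG, against 282, 339 and 301 with DMSO. At 24 hrs they were 163, 159.8 and 107 with RSG, against 299, 389.7 and 417 with DMSO. Every RSG array was below every DMSO array, with differences of -0.93 ± 0.17 (SE, adjusted p = 0.00202) at 4 hrs, -1.19 ± 0.17 (SE, adjusted p = 4.9e-05) at 7 hrs, -1.38 ± 0.17 (SE, adjusted p = 8.84e-07) at 24 hrs and -0.89 ± 0.17 (SE, adjusted p = 0.000287) at 48 hrs.

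In C3H/10T1/2 cultures the Adamts1 signals were 170.1, 147 and 135 with RSG, against 327, 331 and 290.4 with DMSO at 4 hrs. At 7 hrs they were 168, 149 and 116 with RSG, against 306, 284 and 265 with DMSO. At 24 hrs they were 177, 131 and 107 with RSG, against 269, 190.3 and 179 with DMSO. The arrays were separate at each of these times, and the differences were -1.07 ± 0.19 (SE, adjusted p = 0.0025), -0.99 ± 0.19 (SE, adjusted p = 0.00231) and -0.63 ± 0.19 (SE, adjusted p = 0.0392). The call at 24 hrs was lost without DMSO replicate 1 or 2 or RSG replicate 2 or 3 (adjusted p 0.0152 to 0.238). Without the number 3 arrays the call at 4 hrs was lost, and so were most of the member calls of this line at 7 hrs. Already at 1 hr the signals were 370.4, 316 and 316 with RSG, against 545, 499 and 601 with DMSO, and the differences at 1, 2 and 48 hrs, -0.71, -0.67 and -0.51, were called with the block (adjusted p = 0.00521, 0.00365 and 0.00644) and not without it (0.668, 0.278 and 0.129).

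Adamts4 and Adamts5 are the aggrecanases of cartilage. Adamts4 (1452595_at) had signals of 6.8, 24.8 and 10.0 with RSG, against 48.5, 50.9 and 65.5 with DMSO in 3T3-L1 cultures at 24 hrs, with a difference of -2.19 ± 0.59 (SE, adjusted p = 0.0111) that was lost without DMSO replicate 3 or RSG replicate 1 (adjusted p 0.00428 to 0.0919). For the C3H/10T1/2 line, it was called at 48 hrs, with 56.8, 52.1 and 53.5 with RSG, against 99.4, 100.3 and 114 with DMSO, and the difference of -0.95 ± 0.27 (SE, adjusted p = 0.0341) was lost without any 1 of the 6 arrays (adjusted p 0.069 to 0.112). Neither comparison overlapped, and 2 of the RSG arrays of 3T3-L1 were under the presence level. Adamts5 (1422561_at) was lower in 3T3-L1 cultures, with 50.5, 72.8 and 56.4 with RSG, against 121, 167 and 124 with DMSO at 7 hrs and 118, 112 and 163 with RSG, against 231, 241 and 232 with DMSO at 24 hrs. The differences were -1.2 ± 0.23 (SE, adjusted p = 0.00296) and -0.86 ± 0.23 (SE, adjusted p = 0.0134), the second of which was lost without RSG replicate 1 or 2 (adjusted p 0.00852 to 0.0662). In the other line, C3H/10T1/2, the other probe set, 1450658_at, was called at 48 hrs, with 73.0, 65.9 and 50.8 with RSG, against 122, 113 and 104 with DMSO and a difference of -0.85 ± 0.20 (SE, adjusted p = 0.00721), lost without RSG replicate 3 (adjusted p 0.00954 to 0.065), while 1422561_at gave -0.67 ± 0.34 (SE, adjusted p = 0.332).

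All 4 inhibitors were called lower by at least 1 probe set in 1 line, and Timp2 in both. Timp2, which blocks most Mmps and also takes part with Mmp14 in the activation of Mmp2, had signals (1433662_s_at) of 418, 412 and 341 with RSG, against 956, 722 and 888 with DMSO in 3T3-L1 cultures at 48 hrs. The RSG arrays were all below the DMSO arrays, with a difference of -1.13 ± 0.17 (SE, adjusted p = 2.12e-05), while at 24 hrs it was -0.12 ± 0.17 (SE, adjusted p = 0.752). In C3H/10T1/2 cultures they were 496, 686 and 706 with RSG, against 948, 1174 and 921 with DMSO at 24 hrs and 470.1, 374 and 425 with RSG, against 525, 998 and 720.4 with DMSO at 48 hrs, without overlap. The differences were -0.70 ± 0.17 (SE, adjusted p = 0.0091), lost without DMSO replicate 2 or RSG replicate 1, and -0.78 ± 0.17 (SE, adjusted p = 0.00447), lost without DMSO replicate 2 (adjusted p 0.00977 to 0.0938 and 0.000372 to 0.0695). The suffix of this probe set marks probes that can bind related transcripts.

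The other Timp2 probe sets went the same way where they were called. At 24 and 48 hrs 1460287_at gave -0.47 ± 0.11 (SE, adjusted p = 0.00244) and -0.74 ± 0.11 (SE, adjusted p = 7.73e-06) in 3T3-L1 cultures. It gave -0.64 ± 0.13 (SE, adjusted p = 0.00157) and -0.62 ± 0.13 (SE, adjusted p = 0.00225) in C3H/10T1/2 cultures. In 3T3-L1 cultures 1454677_at was at -0.95 and -1.62, and in C3H/10T1/2 cultures it was called at 24 hrs (-0.95) and 1450040_at at both times (-0.94 and -0.92).

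Timp1, which blocks most secreted Mmps, had signals in 3T3-L1 cultures of 327, 282 and 321 with RSG, against 346, 521 and 565 with DMSO at 24 hrs. At 48 hrs they were 152, 178 and 197 with RSG, against 411, 282 and 366 with DMSO. No RSG array reached a DMSO array, and the differences were -0.59 ± 0.17 (SE, adjusted p = 0.0203), lost without DMSO replicate 2 or 3 or RSG replicate 2 (adjusted p 0.00195 to 0.157), and -1.0 ± 0.17 (SE, adjusted p = 0.000102). For the C3H/10T1/2 line, the 24-hr signals were 1465, 1051 and 1392 with RSG, against 2299, 1537 and 1640.4 with DMSO, and the difference of -0.48 ± 0.61 (SE, adjusted p = 0.74) was not called. The arrays of a group lay far apart in this line at other times, as at 1 hr, when the signals were 2524, 2607 and 624 with RSG, against 2302, 2590.2 and 580.2 with DMSO.

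Timp3, which binds to the matrix and blocks Adam17 and the aggrecanases, was called by 1 of its probe sets in C3H/10T1/2 cultures. The signals of 1419089_at at 24 hrs were 50.1, 52.0 and 42.8 with RSG, against 74.8, 102 and 92.7 with DMSO, with no overlap and a difference of -0.89 ± 0.21 (SE, adjusted p = 0.00606), against -0.33 ± 0.22 (SE, adjusted p = 0.385) in 3T3-L1 cultures. The probe set with the highest mean signal, 1449335_at, gave -0.30 ± 0.30 (SE, adjusted p = 0.653). Timp4, the inhibitor known from heart and fat tissue, was called by 1423405_at in 3T3-L1 cultures, with 24.8, 19.3 and 27.6 with RSG, against 51.0, 75.1 and 83.0 with DMSO at 24 hrs and 22.7, 34.5 and 33.5 with RSG, against 68.7, 46.9 and 66.2 with DMSO at 48 hrs. All RSG arrays were below all DMSO arrays, with differences of -1.53 ± 0.28 (SE, adjusted p = 0.000225) and -1.01 ± 0.28 (SE, adjusted p = 0.0111), the second of which was lost without DMSO replicate 1 or RSG replicate 1 (adjusted p 0.00801 to 0.0842). Its other probe set, 1450974_at, gave -0.57 ± 0.26 (SE, adjusted p = 0.187) and -0.42 ± 0.26 (SE, adjusted p = 0.352). In the other line, C3H/10T1/2, 1423405_at was not tested.

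**Figure D4:**
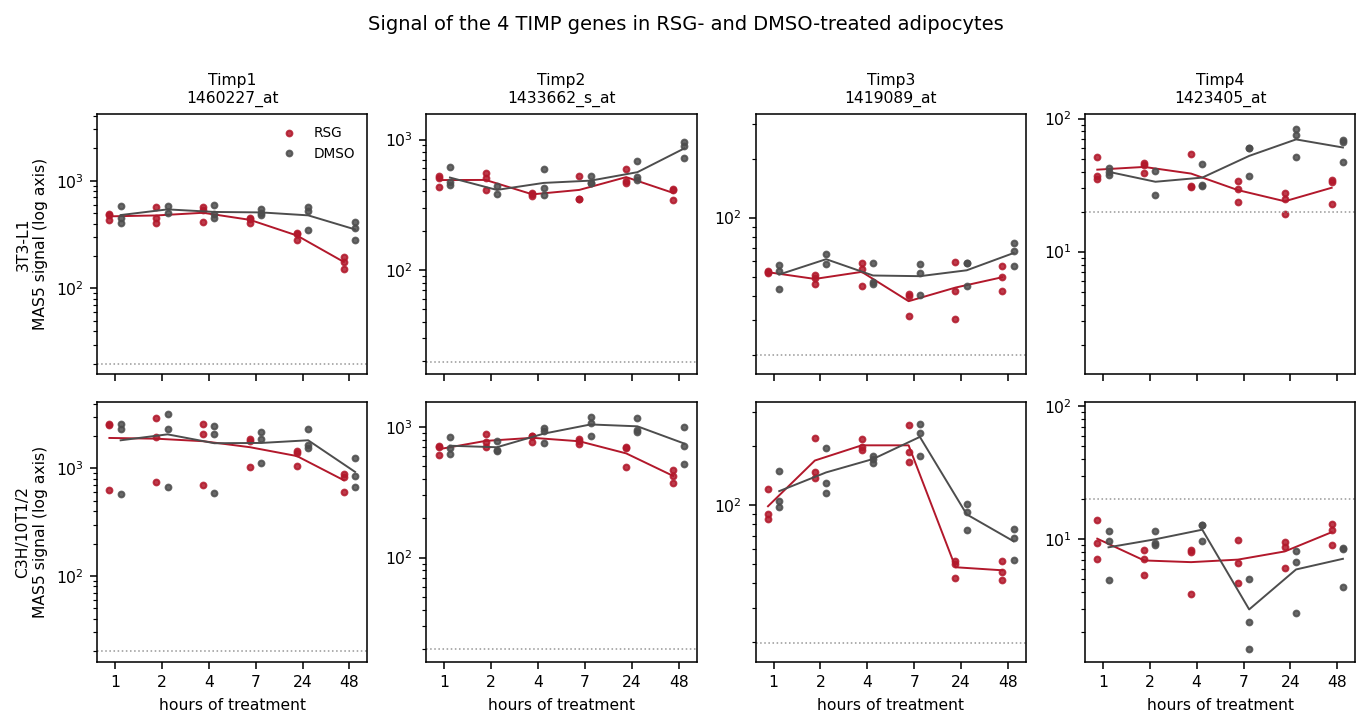
Signal (log axis, arbitrary units) of Timp1, Timp2 (1433662_s_at), Timp3 (1419089_at) and Timp4 (1423405_at) on each array in both lines at 1 to 48 hrs, with RSG in red, DMSO in grey, lines through the group means and a dotted line at the presence level of 19.9. In 3T3-L1 cultures RSG lies below DMSO at 48 hrs for Timp1, Timp2 and Timp4, and in C3H/10T1/2 cultures at 24 hrs for Timp2 and Timp3.

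The other calls that C3H/10T1/2 cultures gained with the replicate block were of genes already described, and adjusted p-values here are with the block. Adamts5 was at -0.71 at 24 hrs (adjusted p = 0.0211) and -0.67 at 48 hrs (adjusted p = 0.0377) by 1422561_at and at -0.59 at 24 hrs (adjusted p = 0.0115) by 1450658_at. Timp2 was at -0.63 at 24 hrs (adjusted p = 0.0189) and -0.72 at 48 hrs (adjusted p = 0.00785) by 1420924_at and at -0.59 at 48 hrs (adjusted p = 0.0424) by 1454677_at. Adam15 was at -0.48 at 48 hrs (adjusted p = 0.0357) by 1438760_x_at and at -0.56 at 48 hrs (adjusted p = 0.0293) by 1416080_at. Adam12 was higher by 1421171_at, at 0.64 at 48 hrs (adjusted p = 0.00676), and Mmp14 was lower by 1416572_at, at -0.53 at 7 hrs (adjusted p = 0.0215).

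The other 25 members tested, among them Adam9, which can shed growth factors, and the membrane-anchored Mmp17, were called for RSG at no time in either line, by limma without a block, and with the block they were at no time called in C3H/10T1/2 cultures.

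Genes that act with these proteases were described from 5 lists built by function, and their counts are to be read against the shares of all probe sets called. For 3T3-L1 these were 4.79% higher and 6.97% lower (24 hrs) and 6.2% and 8.09% (48 hrs). For C3H/10T1/2 they were 3.65% and 4.07% (24 hrs) and 2.79% and 2.62% (48 hrs). Among activators, cofactors and other inhibitors, 1 probe set was higher and 6 lower of 20 at 24 hrs in 3T3-L1 cultures, 1 and 5 at 48 hrs, and in C3H/10T1/2 cultures 0 and 5 of 16 at 24 hrs and 1 and 3 at 48 hrs. Pcolce, which helps Bmp1 to process procollagen, was lower in both lines (by 1 probe set -1.10 at 48 hrs in 3T3-L1 cultures and -0.71 in C3H/10T1/2 cultures). Reck, a membrane-anchored Mmp inhibitor, was lower at 24 hrs in 3T3-L1 (-1.07) and at both late times in C3H/10T1/2 cultures (-0.91 and -0.92). Bsg, or basigin, an inducer of Mmps on the cell surface, was higher at 48 hrs in 3T3-L1 (1.80) and C3H/10T1/2 cultures (0.68). The list medians were -0.03 and -0.58 at 24 and 48 hrs in 3T3-L1 cultures and -0.55 and -0.37 in C3H/10T1/2 cultures, beside medians of all probe sets of -0.01, -0.03, -0.07 and -0.01.

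Among matrix substrates 0 probe sets were higher and 7 lower of 26 at 24 hrs in 3T3-L1 cultures and 0 and 10 at 48 hrs, and in C3H/10T1/2 cultures 0 and 4 of 25 at 24 hrs and 1 and 8 at 48 hrs. Vcan, which encodes versican, the substrate of Adamts1, was lower in 3T3-L1 cultures (-1.0 at 24 hrs and -0.88 at 48 hrs), and Col1a2, a chain of collagen I, was lower in both lines (by 1 probe set -1.15 in 3T3-L1 cultures and -0.82 in C3H/10T1/2 cultures at 48 hrs). Thbs1, or thrombospondin 1, was the substrate that was higher, at 48 hrs in C3H/10T1/2 cultures (0.74). Collagen genes of this list are also among the fibroblast markers. The medians were -0.33 and -0.42 in 3T3-L1 cultures and -0.36 and -0.37 in C3H/10T1/2 cultures at 24 and 48 hrs.

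Among proteins that ADAMs shed, 1 probe set was higher and 9 lower of 45 at 24 hrs in 3T3-L1 cultures and 1 and 12 at 48 hrs, and in C3H/10T1/2 cultures 1 and 7 of 44 at 24 hrs and 0 and 4 at 48 hrs. The adhesion molecule Vcam1 was lower in both lines, at -0.94 in 3T3-L1 cultures and -0.83 in C3H/10T1/2 cultures at 48 hrs on the log2 scale, and the receptor Notch2 at -1.22 and -0.75 at 24 hrs. The proteoglycan syndecan-4 (Sdc4) was higher in 3T3-L1 cultures, at 0.64 at 24 hrs and 0.57 at 48 hrs, each by a different probe set, and the growth factor Hbegf was higher in C3H/10T1/2 cultures at 24 hrs, at 0.87. Of the cathepsins and their inhibitors the cystatins, 0 probe sets were higher and 3 and 4 lower of 14 at 24 and 48 hrs in 3T3-L1 cultures and 2 and 0 of 13 in C3H/10T1/2 cultures, among them Cst3 (cystatin C), at -0.72 at 24 hrs in 3T3-L1 cultures and -0.57 in C3H/10T1/2 cultures. In the plasminogen system Lrp1, a scavenger receptor for proteases, was the gene called in 3T3-L1 cultures, at -0.87 at 48 hrs, which made 0 higher and 1 lower of 6 probe sets at each late time, against 0 of 4 in C3H/10T1/2 cultures by limma (1 lower with an unadjusted p under 0.05 at each of these times).

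The DMSO arrays alone showed how far the genes changed in culture after the wash-out. Over the 6 times, 7 probe sets of 5 genes (Adamts5, Mmp3, Mmp9, Mmp11 and Timp2) were called in 3T3-L1 cultures (10.6%), against 2.24% of all probe sets, and 18 probe sets of 11 genes in C3H/10T1/2 cultures (33.3%), against 20.6% of all. The count in 3T3-L1 cultures was 2 without DMSO 48-hr replicate 1 and 4 without DMSO 48-hr replicate 3 or DMSO 7-hr replicate 2. In 3T3-L1 cultures 0 members were called by limma at 7 hrs against 1 hr (0.0832% of all, 8 member probe sets with an unadjusted p under 0.05), 1 at 24 hrs (0.949% of all) and 3 at 48 hrs (1.96% of all).

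In 3T3-L1 cultures Mmp3 fell, with signals of 45.3, 46.6 and 51.2 at 48 hrs, against 104, 119 and 162 at 1 hr and a difference of -1.40 ± 0.25 (SE, adjusted p = 0.000808). Mmp11 also fell, with 543, 414 and 482 at 48 hrs, against 1117, 797 and 1012 at 1 hr and a difference of -1.02 ± 0.21 (SE, adjusted p = 0.00493). Timp2 (1433662_s_at) rose, with 956, 722 and 888 at 48 hrs, against 614, 449 and 469 at 1 hr, at 0.75 ± 0.17 (SE, adjusted p = 0.0152). In none of the 3 did the arrays of the 2 times overlap. The Timp2 call was lost without DMSO 1-hr replicate 2 or 3 or DMSO 48-hr replicate 1 (adjusted p 0.00832 to 0.116). The member called at 24 hrs was Mmp11, at -1.03 ± 0.21 (SE, adjusted p = 0.0089), lost without DMSO 1-hr replicate 1 or DMSO 24-hr replicate 1 (adjusted p 0.0111 to 0.109), and without DMSO 24-hr replicate 3 the count was 2.

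In C3H/10T1/2 cultures 6 probe sets were higher and 3 lower at 7 hrs than at 1 hr, against 5.67% and 4.4% of all, with a median of 0.30 beside 0.08 for all probe sets. At 24 hrs 9 were higher and 2 lower, against 6.25% and 5.5% of all (medians 0.24 and 0.04), and at 48 hrs 3 and 3, against 5.09% and 5.12% of all (medians 0.06 and 0.00). With the replicate block 17 members were called at 7 hrs, 18 at 24 hrs and 8 at 48 hrs, where 15.1%, 16.9% and 15.3% of all probe sets were. The count of 11 at 24 hrs was 3 without the number 3 arrays, 5 without DMSO 1-hr replicate 2 or DMSO 24-hr replicate 2, 6 without DMSO 1-hr replicate 1 or DMSO 24-hr replicate 3 and 7 without DMSO 1-hr replicate 3. Of the 14 fibroblast and preadipocyte markers, 6 genes were higher at 24 hrs than at 1 hr, and their part in these changes was not tested.

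Adamts1 fell in C3H/10T1/2 cultures, with signals of 246, 175 and 182 at 48 hrs, against 545, 499 and 601 at 1 hr, which did not overlap, and a difference of -1.46 ± 0.19 (SE, adjusted p = 2.23e-06). Timp3 fell by 2 of its probe sets, with 52.4, 76.1 and 68.1 at 48 hrs, against 98.3, 105 and 149.5 at 1 hr for 1419089_at. The differences were -0.84 ± 0.21 (SE, adjusted p = 0.00709) for this probe set, lost without DMSO 1-hr replicate 3 or DMSO 48-hr replicate 1 (adjusted p 0.00718 to 0.075), and -1.24 ± 0.30 (SE, adjusted p = 0.00562) for 1449335_at. At 7 hrs 1419089_at had been higher than at 1 hr, with 178, 234 and 259 at 7 hrs, against 98.3, 105 and 149.5 at 1 hr and 0.93 ± 0.21 (SE, adjusted p = 0.0032).

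Adamts5 rose, with 334, 254 and 361 at 48 hrs, against 172, 169 and 77.6 at 1 hr for 1422561_at and a difference of 1.25 ± 0.34 (SE, adjusted p = 0.0133), lost without DMSO 1-hr replicate 3 or DMSO 48-hr replicate 3 (adjusted p 0.0118 to 0.142). Mmp16, a membrane-anchored Mmp (1437568_at), was higher at 48 hrs than at 1 hr at 0.97 ± 0.24 (SE, adjusted p = 0.00643). Its probe set with the higher mean signal, 1422626_at, was not called. Mmp11 was higher at 7 hrs, with 1435, 1931 and 2483 at 7 hrs, against 343, 405 and 555 at 1 hr, all above, and 2.16 ± 0.37 (SE, adjusted p = 0.000153). Adam12 was lower at 7 hrs, with 183, 167 and 137 at 7 hrs, against 301, 341 and 347 at 1 hr, all below, and -1.03 ± 0.13 (SE, adjusted p = 2.15e-06). Mmp3 had 2035, 1430.1 and 589 at 48 hrs, against 819.6, 1018 and 146 at 1 hr, which overlapped, and the difference of 1.27 ± 0.97 (SE, adjusted p = 0.497) was called only with the block (adjusted p = 1.43e-05).

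The DMSO levels of the lines were compared over the 6 times, with 17 arrays of 3T3-L1 and 18 of C3H/10T1/2 cultures, to see which proteases each kind of adipocyte expressed. The fit took these arrays as independent, although same-numbered arrays deviated from their group means together. Correlations were over 0.1 in 18 of 18 pairs of C3H/10T1/2 arrays and in 14 of 17 pairs of 3T3-L1 arrays. The SEs can therefore be too small and the adjusted p values too low, above all for Mmp3, Mmp13 and Timp1. The same holds for Mmp2, for which number 1 of 3T3-L1 was the lowest array in 11 of 11 groups. Mmp3, Mmp13, Adam17, Timp1 and Timp3 were lower in 3T3-L1 cultures, and Mmp2, Mmp9, Mmp23, Adam23 and Timp4 were higher. Probe sets tested in either line entered this comparison. Adam23, Mmp1a, 1448291_at of Mmp9, 1423405_at of Timp4 and 1455965_at of Adamts4 entered through 3T3-L1 alone. For Timp3, 1449334_at entered through C3H/10T1/2 alone. The calls of these probe sets draw on the values that admitted them, so they are no independent support for a difference. Of 68 probe sets 37 were higher and 20 lower in 3T3-L1 (54.4% and 29.4%), against 55.1% and 22.4% of all 18274 probe sets. With quantile normalization 28 were higher and 26 lower, which took the share of higher ones among those called to 51.9%, against 64.9% as deposited. Among all probe sets called, this share was 54.4% with quantile normalization and 71.1% as deposited. The median of all probe sets was 0.32 as deposited and 0.08 with quantile normalization, a shift of 0.25, so the differences below are to be read against a median of 0.32, and the median of the members was 0.31.

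Mmp23 (1417282_at), an Mmp released from the membrane by furin, had a lowest, median and highest signal of 108, 164 and 316 in 3T3-L1, against 2.8, 14.4 and 46.4 in C3H/10T1/2 cultures. Every 3T3-L1 array was higher, with a log2 difference of 3.92 ± 0.29 (SE, adjusted p = 5.01e-18), whose size is uncertain because only 5 of the 18 C3H/10T1/2 arrays reached the presence level. Adam23 had a lowest, median and highest signal of 32.9, 66.9 and 164 in 3T3-L1, against 3.8, 4.8 and 12.5 in C3H/10T1/2 cultures, where every array was under the presence level, so 3T3-L1 was at least 3.45-fold higher (adjusted p = 1.74e-22). Mmp9 (1416298_at) had a lowest, median and highest signal of 82.1, 111 and 157 in 3T3-L1, against 17.8, 39.5 and 68.7 in C3H/10T1/2 cultures, without overlap, and a difference of 1.53 ± 0.10 (SE, adjusted p = 7.94e-21), and 1448291_at was at least 3.14-fold higher in 3T3-L1. Timp4 (1450974_at) had a lowest, median and highest signal of 55.6, 70.9 and 97.6 in 3T3-L1, against 7.5, 29.6 and 49.8 in C3H/10T1/2 cultures, without overlap, and a difference of 1.46 ± 0.17 (SE, adjusted p = 4.19e-11). Mmp1a, a mouse collagenase related to human MMP1, had a lowest, median and highest signal of 9, 22.6 and 34.1 in 3T3-L1, against 2.2, 8.8 and 13.5 in C3H/10T1/2 cultures, where every array was again under the presence level, so 3T3-L1 was at least 1.08-fold higher (adjusted p = 1.05e-08). Mmp2, outside the 5 largest, was also higher on every array, at 1.00 ± 0.07 (SE, adjusted p = 6.48e-18).

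Mmp13 had a lowest, median and highest signal of 5.3, 13.3 and 33.9 in 3T3-L1, against 42.7, 185 and 444 in C3H/10T1/2 cultures, with every 3T3-L1 array lower and a difference of -3.61 ± 0.26 (SE, adjusted p = 4.31e-18), or -4.23 without number 3 of C3H/10T1/2, sizes that are uncertain because only 3 of the 17 3T3-L1 arrays reached the presence level. Mmp3 had a lowest, median and highest signal of 45.3, 117 and 227 in 3T3-L1, against 142, 959 and 2035 in C3H/10T1/2 cultures, and arrays of number 3 of C3H/10T1/2 reached into the 3T3-L1 range. Its difference was -2.64 ± 0.31 (SE, adjusted p = 8.89e-11), and -3.44 without number 3. Timp1 had a lowest, median and highest signal of 282, 492 and 601 in 3T3-L1, against 580, 1751 and 3202 in C3H/10T1/2 cultures, which overlapped through number 3 of C3H/10T1/2, with a difference of -1.64 ± 0.20 (SE, adjusted p = 1.29e-10), and -2.07 without number 3. Adam17 (1421858_at) had a lowest, median and highest signal of 87.1, 115 and 194 in 3T3-L1, against 197, 267 and 356 in C3H/10T1/2 cultures, without overlap, and a difference of -1.11 ± 0.07 (SE, adjusted p = 1.43e-19). Adamts4 (1452595_at) had a lowest, median and highest signal of 8.7, 48.4 and 70.7 in 3T3-L1, against 39.7, 81.2 and 149 in C3H/10T1/2 cultures, with overlap, at -1.15 ± 0.20 (SE, adjusted p = 7.02e-07), but its other probe set, 1455965_at, was called in the other direction (adjusted p = 0.000107), with no size given because no C3H/10T1/2 group mean reached the presence level.

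Other probe sets of the inhibitors differed among themselves. Of the 4 tested probe sets of Timp3, 3 were called, all lower in 3T3-L1 cultures, at -0.92 (1449335_at) and -1.17 (1419089_at), while for 1449334_at no 3T3-L1 group mean reached the presence level and no size is given. For Timp2, 1433662_s_at was lower in 3T3-L1 at -0.66, and so were 1420924_at at -0.35, 1450040_at at -0.39 and 1454677_at at -0.30. Without number 3 of C3H/10T1/2, 1450040_at was at -0.24 and was not called. In contrast, 1460287_at was higher at 0.17, which is below the median of all probe sets, and was at 0.26 with quantile normalization. Timp4 was higher in 3T3-L1 also by 1423405_at, at least 2.36-fold.

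**Figure D5:**
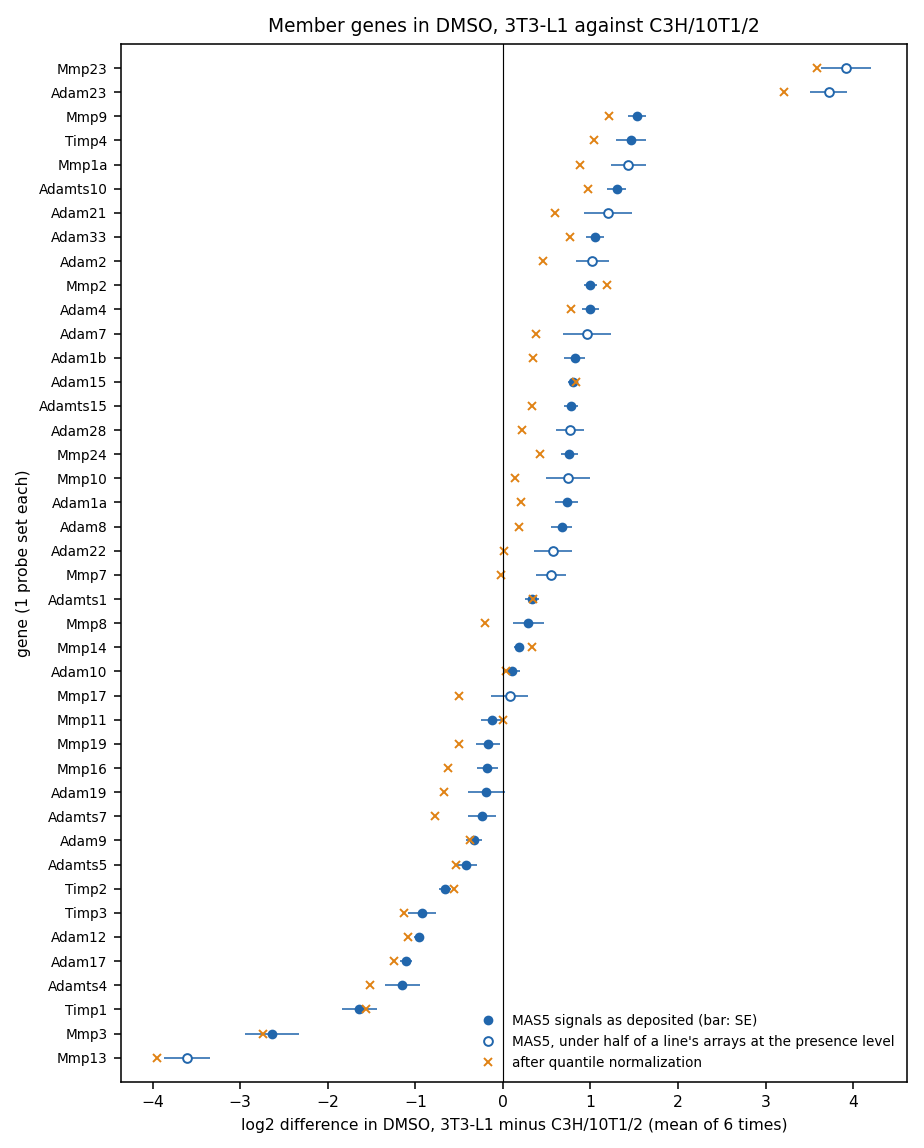
Log2 difference of the DMSO level, 3T3-L1 minus C3H/10T1/2 cultures, for members, as deposited and after quantile normalization, with bars for the standard error and 1 probe set for each gene. Open circles are genes for which most arrays of at least 1 line lay under the presence level, so that their place on the axis is uncertain. Among the filled circles Mmp3 and Timp1 lie to the left of 0 and Mmp9 and Timp4 to the right under both scalings.

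Whether RSG acted differently in the 2 lines was tested as the difference of the RSG effects, 3T3-L1 minus C3H/10T1/2. At 24 hrs 0 members were called by limma, against 0.257% of all probe sets, and 8 of the 68 member probe sets had an unadjusted p under 0.05. The count was 1 without C3H/10T1/2 DMSO 24-hr replicate 2 or without 3T3-L1 DMSO 24-hr replicate 1. With the replicate block 1 probe set was called at 24 hrs and 6 at 48 hrs, against 0.897% and 2.14% of all. Without the block 2 members were called at 48 hrs, against 0.848% of all. The rise of Adam12 was larger in 3T3-L1 cultures at 48 hrs, with a difference of the effects of 0.98 ± 0.20 (SE, adjusted p = 0.00301), and the difference at 24 hrs was 0.44 ± 0.20 (SE, adjusted p = 0.506). Adam7, known from the epididymis, was the other member called (adjusted p = 0.0108), and no size is given because every array of 2 of the 4 groups was under the presence level. The call also draws on values that admitted the gene to the test, so it is no independent support for a difference. Adam7 had its highest 3T3-L1 group mean, 20.4, in the DMSO 48-hr group compared here. Its signals at 48 hrs were 1.5, 19.0 and 6.7 with RSG, against 31.2, 23.1 and 7.0 with DMSO in 3T3-L1 cultures and 20.6, 11.4 and 13.8 with RSG, against 0.7, 3.1 and 8.5 with DMSO in C3H/10T1/2 cultures, and the call was lost without DMSO 48-hr replicate 1 of either line or RSG 48-hr replicate 1 of 3T3-L1 (adjusted p 0.0016 to 0.117). For Mmp11 the effects at 24 hrs differed by 0.03 ± 0.44 (SE, adjusted p = 0.996), and for Adamts1 by -0.75 ± 0.26 (SE, adjusted p = 0.305).

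The change in DMSO since 1 hr was compared between the lines in the same way, a comparison added after the values were seen. At 24 hrs 4 members were called, against 3.09% of all probe sets, and at 48 hrs 2, against 2.58%. The count at 24 hrs was 2 without the number 3 arrays of C3H/10T1/2, without C3H/10T1/2 DMSO 24-hr replicate 3 or without 3T3-L1 DMSO 1-hr replicate 3. The count at 48 hrs was 1 without C3H/10T1/2 DMSO 48-hr replicate 1. With the replicate block 5 probe sets were called at 48 hrs, against 4.94% of all. Mmp11 was lower at 24 hrs than at 1 hr in 3T3-L1 cultures (-1.03) and higher in C3H/10T1/2 cultures (1.10), and the changes differed by -2.12 ± 0.44 (SE, adjusted p = 0.00175). Adamts1 changed by 0.03 at 48 hrs in 3T3-L1 cultures and -1.46 in C3H/10T1/2 cultures, with a difference of 1.49 ± 0.26 (SE, adjusted p = 0.000122).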

How the data were processed

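RNA of both kinds of adipocytes, treated with RSG or DMSO, was hybridised to Affymetrix mouse arrays. The deposited values were signal intensities that the authors had computed with MAS5, with its background correction and scaling to a common target, and they were not normalized again here. Trimmed means (2% from each end) lay between 148.81 and 149.26 on the 71 arrays, medians between 50.2 and 64.2 in 3T3-L1 and between 38.2 and 46.9 in C3H/10T1/2 adipocytes. The number of arrays limits the precision.

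Of 22690 probe sets, 64 controls were set aside. Of the remaining 22626, 20380 were annotated to 1 gene, 691 to several and 1555 to none, and 1 probe set of these families was left out because it named several genes. The 132 values of 0 were set to 0.1 before the log2 transformation.

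A linear model with a mean for every group was fitted to the log2 signals in limma 3.58.1 (lmFit, then eBayes with an intensity trend, R 4.3.3), in each line separately, and for comparisons between lines in 1 fit of all 71 arrays. All adjusted p values are limma's moderated tests, two-sided, adjusted after Benjamini and Hochberg over all probe sets tested in the comparison. The fit was tested on simulated data. Tables and figures were made with Python 3.11.15, pandas 2.3.3 and matplotlib 3.10.9.

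The study's methods name 3 batches of cells as replicates, and p values within a line measure the spread between the arrays of a group. The comparison of DMSO levels between the lines takes the arrays of all times as independent. Its p values therefore do not measure the spread between batches. The replicate numbers were taken to pair the C3H/10T1/2 arrays, since same-numbered arrays of the 2 treatments at a time deviated from their groups together, with correlations over 0.1 in 18 of 18 pairs (0.132 to 0.307, across probe sets). No source says that a number marks the same batch.

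The text names all genes called for RSG, all Timp genes, the 3 largest called rises and falls at 48 hrs against 1 hr in DMSO in each line, the 5 largest differences each way between the lines, and members called for the difference of the RSG effect between the lines, each by the probe set with the highest mean log2 signal, with others where the call or direction differs. Further changes in DMSO and Mmp2 between the lines were named after their values were seen. A gene below the presence level on every array of a group has a fold only as a bound, computed with that group set to the presence level. Members, lists and motifs were chosen with earlier results of these data known. Alternatives were quantile normalization, a floor at the presence level, no filter, no intensity trend, fits of fewer groups, the replicate block, the methods' test and each array left out, and the comparison of changes in DMSO between the lines and the fits without number 3 of C3H/10T1/2 were added after values were seen.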

Additional observations from a re-analysis of the deposited data

Results flagged for a closer look

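For 6 genes an effect differed between the 2 lines by the test of the difference itself, given as 3T3-L1 minus C3H/10T1/2 on the log2 scale with limma's adjusted p. For the RSG effect at 48 hrs the difference was 0.98 for Adam12 (adjusted p = 0.00301), which was higher with RSG in both lines. It was -4.06 for Adam7 (adjusted p = 0.0108), a fitted value that gives no size because every array of 2 of the 4 groups was under the presence level, and that call was lost without C3H/10T1/2 DMSO 48-hr replicate 1, 3T3-L1 DMSO 48-hr replicate 1 or 3T3-L1 RSG 48-hr replicate 1. The 3T3-L1 DMSO 48-hr group also held the highest Adam7 group mean of that line, 20.4, which admitted the gene to the test.

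For the change in DMSO from 1 hr to 24 hrs the difference was -2.12 for Mmp11 (adjusted p = 0.00175), where 3T3-L1 changed by -1.03 and C3H/10T1/2 by 1.10. It was 0.83 for Adam12 (adjusted p = 0.00672). For Adamts1 it was 1.02 (adjusted p = 0.0133), lost without C3H/10T1/2 DMSO 24-hr replicate 3 or 3T3-L1 DMSO 1-hr replicate 3. For Mmp14 (1448383_at) it was -0.66 (adjusted p = 0.0184), lost without C3H/10T1/2 DMSO 1-hr replicate 1, C3H/10T1/2 DMSO 24-hr replicate 3 or 3T3-L1 DMSO 1-hr replicate 3.

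For the change from 1 hr to 48 hrs the difference was 1.49 for Adamts1 (adjusted p = 0.000122) and 1.2 for Timp3 (1419089_at, adjusted p = 0.0107), the second of which was lost without C3H/10T1/2 DMSO 1-hr replicate 3 or DMSO 48-hr replicate 1. No group had 4 or more arrays, so outlying arrays were not tested for.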

How the results depend on the processing

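Counts below are member probe sets called. By the methods' test without adjustment the RSG counts were 5, 1, 5 and 11 at 1, 2, 4 and 7 hrs in 3T3-L1 adipocytes, and 2, 1, 7, 10 and 20 at 1, 2, 4, 7 and 48 hrs in C3H/10T1/2 adipocytes, and after adjustment all 12 RSG counts were within 1.5 times those reported. A replicate block on the C3H/10T1/2 arrays gave RSG counts at 1, 2, 4 and 48 hrs of 1, 1, 2 and 18, and for DMSO at 7 and 24 hrs against 1 hr of 17 and 18. In 3T3-L1 adipocytes, where 14 of 17 pairs correlated above 0.1 (0.0187 to 0.261) and the arrays share only a number, the block gave 4 and 7 for DMSO at 24 and 48 hrs against 1 hr, and Mmp19 (1421977_at, -0.83) was called for RSG at 24 hrs with it (adjusted p = 0.0485). For the difference of the RSG effect between the lines the block gave 1 at 24 hrs and 6 at 48 hrs, and for the change in DMSO 5 at 48 hrs. The other counts with the block were within 1.5 times.

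Quantile normalization gave 2 for DMSO at 24 hrs against 1 hr in 3T3-L1 adipocytes and 1 for the difference of the RSG effect at 24 hrs. The fit of only the 2 groups compared gave 2 for RSG at 7 hrs in C3H/10T1/2 adipocytes. Without a filter 7 were called for DMSO at 24 hrs against 1 hr in C3H/10T1/2 adipocytes. The difference of the RSG effect at 24 hrs was called for 1 without the intensity trend and for 1 with a floor at the presence level, and the floor gave 4 for the change in DMSO at 48 hrs between the lines. Between the lines in DMSO, quantile normalization turned Adam10 (1450105_at) to -0.060, Mmp24 (1417678_at) to -0.009 and Mmp7 to -0.023, and the floor turned Mmp7, under the presence level on every array, to -0.000. The cause was not tested.

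With arrays left out in turn, or all of number 3 of C3H/10T1/2, the RSG counts in 3T3-L1 adipocytes were 1 to 1 at 4 hrs, 3 to 4 at 7 hrs, 8 to 14 at 24 hrs and 14 to 16 at 48 hrs, and in C3H/10T1/2 adipocytes 0 to 1, 1 to 4, 9 to 12 and 8 to 10. For DMSO in 3T3-L1 adipocytes they were 2 to 7 over the 6 times, 0 to 2 at 24 hrs and 2 to 4 at 48 hrs, and in C3H/10T1/2 adipocytes 13 to 18 over the 6 times, 7 to 9 at 7 hrs, 3 to 8 at 24 hrs and 4 to 6 at 48 hrs. Between the lines they were 55 to 58 in DMSO, 0 to 1 and 1 to 2 for the RSG effect at 24 and 48 hrs, and 2 to 5 and 1 to 3 for the change in DMSO. Of 158 single results called, 105 were called without any 1 array and 53 were not. Direction held in all 158 with the block and in 155 with quantile normalization, where 19 lost the call.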
